A study of Homo sapiens with 12 samples.

Results

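Goblet-type secretory genes of intestinal epithelium were followed across 12 RNA sequencing libraries of HT29, an established human line of colorectal adenocarcinoma origin. They are 10 named genes of the 20015 in the count table: AGR2 and AGR3, the mucin genes MUC1, MUC2 and MUC13, the trefoil factor genes TFF1 and TFF3, REG4, SPINK4 and SPDEF. Each was found by its symbol, and all 10 had a row. HT29 cells expressing Cas9 were transduced with a lentiviral guide RNA against QRICH1 (QRICH1 KO) or with a non-targeting guide (WT). Both were given tunicamycin (Tm) at 0.3 µg/ml for 14 h or the solvent DMSO, which makes 4 groups of 3 biological replicates: QRICH1 KO Tm, WT Tm, QRICH1 KO DMSO and WT DMSO. Cas9 and a lentiviral guide are therefore shared by all 4 groups. Whether the QRICH1 KO cells are 1 clone or a pool is not given in the sources used here.

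Goblet cells make the mucus of the gut. Their gel-forming mucin, MUC2, is a very large, disulfide-linked and heavily glycosylated protein that has to be folded in the endoplasmic reticulum (ER). AGR2 is an ER protein of the disulfide isomerase family that mouse goblet cells need for MUC2 production, trefoil factors are small secreted peptides that accompany mucus, and SPDEF is an ETS-family transcription factor that drives goblet cell maturation in the mouse. Tunicamycin stops N-linked glycosylation. Misfolded proteins then build up in the ER, which switches on the unfolded protein response.

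AGR2 rose with Tm, and it was the 1 gene called with Tm among the 7 that could be tested. It was the gene with the largest rise among tested genes of at least 10 counts per 1000000 counts (CPM) in both genotypes, and under Tm it was lower in QRICH1 KO than in WT cells. SPDEF was lower in QRICH1 KO than in WT under Tm, and its values were lower by a like amount under DMSO, where the test was not passed. The trefoil, mucin and REG4 genes were scarce in all 4 groups and none passed a test. AGR3, MUC1 and SPINK4 had at most 11 counts in any library and did not pass the filter on low counts, so 7 of the 10 genes were tested, among 11323 genes in all.

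Total counts ranged between 6856736 and 17861844 per library. A gene with 0 counts may still be present at up to 3 counts, or 0.170 to 0.456 CPM depending on the library; this covers counting error only. Between 13124 and 15340 genes had a count, and both QRICH1 KO libraries numbered 3 had more such genes (14813 under Tm, 15340 under DMSO) than the other 10 libraries. QRICH1 itself had 26.8, 22.4 and 19.2 CPM in QRICH1 KO Tm, against 30.8, 31.0 and 25.7 CPM in WT Tm, and 23.3, 24.1 and 24.8 CPM in QRICH1 KO DMSO against 22.7, 31.1 and 35.0 CPM in WT DMSO. These ranges overlap, and neither difference was called (log2 fold change -0.36, adjusted p = 0.352 under Tm; -0.31, adjusted p = 0.577 under DMSO). A gene-level count does not show a small insertion or deletion at a guide's cut site, so the genotype is given as labelled.

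The epithelial identity of the line showed in the keratins: KRT8 averaged 42896 ± 5502, 38901 ± 5099, 51535 ± 6899 and 46907 ± 11504 CPM in QRICH1 KO Tm, WT Tm, QRICH1 KO DMSO and WT DMSO (SD, n = 3 each). The mean over all 12 libraries was 26186 CPM for KRT18 and 2868 CPM for KRT19. Of 10 epithelial markers 9 were tested, and not all were abundant. CEACAM5 averaged 1.29 CPM over the 12 libraries, and GPA33, which was not tested, had at most 8 counts in a library. Goblet cell genes ranged widely. Among them SERPINA1 averaged 126 CPM over the 12 libraries, WFDC2 11.8, BCAS1 10.1, SPINK1 5.92 and TFF2 5.45 CPM, while others were near the detection limit. ATOH1, the transcription factor that commits gut cells to the secretory lineage, had at most 12 counts in a library, the goblet granule genes CLCA1 and ZG16 had at most 5 and 6, and the mucus protein gene FCGBP had at most 13. None of 13 markers of absorptive cells and none of 8 of enteroendocrine cells passed the count filter, with APOA4, PYY and INSM1 at 0 in all 12 libraries. In bulk RNA, fewer cells of a type and less RNA per cell cannot be told apart, which holds for every level given here.

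The DNA just upstream of the called genes AGR2 and SPDEF is printed here, with that of AGR3, the scarce neighbour of AGR2. For each it is the 250 bases before the RefSeq start, beside those of HSPA5, an ER chaperone gene. The HSPA5 promoter is a textbook target of the unfolded protein response. All 4 genes lie on the minus strand, and the sequences run 5′ to 3′ along the gene (RefSeq, GRCh38.p14), at chr7:16805000-16805249 for AGR2, chr7:16881984-16882233 for AGR3, chr6:34556330-34556579 for SPDEF and chr9:125241344-125241593 for HSPA5. Capitals mark matches, on either strand, to the motifs described after the sequences.
AGR2: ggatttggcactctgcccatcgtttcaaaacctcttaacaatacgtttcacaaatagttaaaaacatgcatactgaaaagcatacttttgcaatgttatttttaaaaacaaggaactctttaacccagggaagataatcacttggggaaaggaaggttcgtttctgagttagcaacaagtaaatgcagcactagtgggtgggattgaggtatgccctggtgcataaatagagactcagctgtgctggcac
AGR3: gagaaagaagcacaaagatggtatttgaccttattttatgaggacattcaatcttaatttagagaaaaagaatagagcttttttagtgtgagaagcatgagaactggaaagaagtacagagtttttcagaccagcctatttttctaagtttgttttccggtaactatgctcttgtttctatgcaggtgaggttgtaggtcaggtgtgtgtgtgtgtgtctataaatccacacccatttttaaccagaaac
SPDEF: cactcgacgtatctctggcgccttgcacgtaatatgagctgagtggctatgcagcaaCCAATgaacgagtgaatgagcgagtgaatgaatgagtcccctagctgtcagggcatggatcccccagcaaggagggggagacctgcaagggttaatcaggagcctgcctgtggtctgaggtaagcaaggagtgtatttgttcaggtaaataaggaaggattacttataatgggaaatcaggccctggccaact
HSPA5: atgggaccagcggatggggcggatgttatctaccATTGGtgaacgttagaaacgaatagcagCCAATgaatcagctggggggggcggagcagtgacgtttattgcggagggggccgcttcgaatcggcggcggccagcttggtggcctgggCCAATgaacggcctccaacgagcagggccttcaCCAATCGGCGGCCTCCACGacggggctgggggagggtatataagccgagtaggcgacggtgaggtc

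Both strands were searched for the ER stress response element (CCAAT, then 9 bases of any kind, then CCACG), held by 0.0740% of 35116 windows of the same length, another form of it (ATTGG, 1 base of any kind, CCACG; 0.0513%), the element's parts CCAAT (32.0%) and CCACG (33.5%), TGACGTG, the core of the XBP1 and ATF6 element (1.68%), and the ATF4 motif TGATGNAAN (3.13%). The HSPA5 window held the full element once, which contains its 1 CCACG and 1 of its 4 CCAAT matches. SPDEF held CCAAT once, and the AGR2 and AGR3 windows held none of these letters. A match is a description of letters and not a bound site, and no match says only that the letters are absent from these 250 bases. AGR2 reaches further upstream in the GENCODE annotation (chr7:16791811-16833433, hg38), and that upstream start was not searched. Windows of 8 of the 10 genes were in the table used.

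AGR2 (ENSG00000106541.12, minus strand, 2845 exon bases) had 1680, 1963 and 1622 CPM in QRICH1 KO Tm and 2903, 3095 and 2843 CPM in WT Tm, against 76.6, 65.8 and 58.0 CPM in QRICH1 KO DMSO and 61.0, 60.4 and 79.6 CPM in WT DMSO. Every Tm library lay above every DMSO library, every WT Tm library lay above every QRICH1 KO Tm library, and the DMSO libraries of both genotypes overlapped. Libraries that do not overlap, higher with Tm, were found for 16.9% of tested genes in QRICH1 KO and 19.0% in WT. Under Tm, libraries that do not overlap, lower in QRICH1 KO than in WT, were found for 9.06% of tested genes. In raw counts AGR2 had 16764 to 21180 in QRICH1 KO Tm and 18700 to 38079 in WT Tm, against 927 to 1355 in QRICH1 KO DMSO and 448 to 1070 in WT DMSO.

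**Figure D1:**
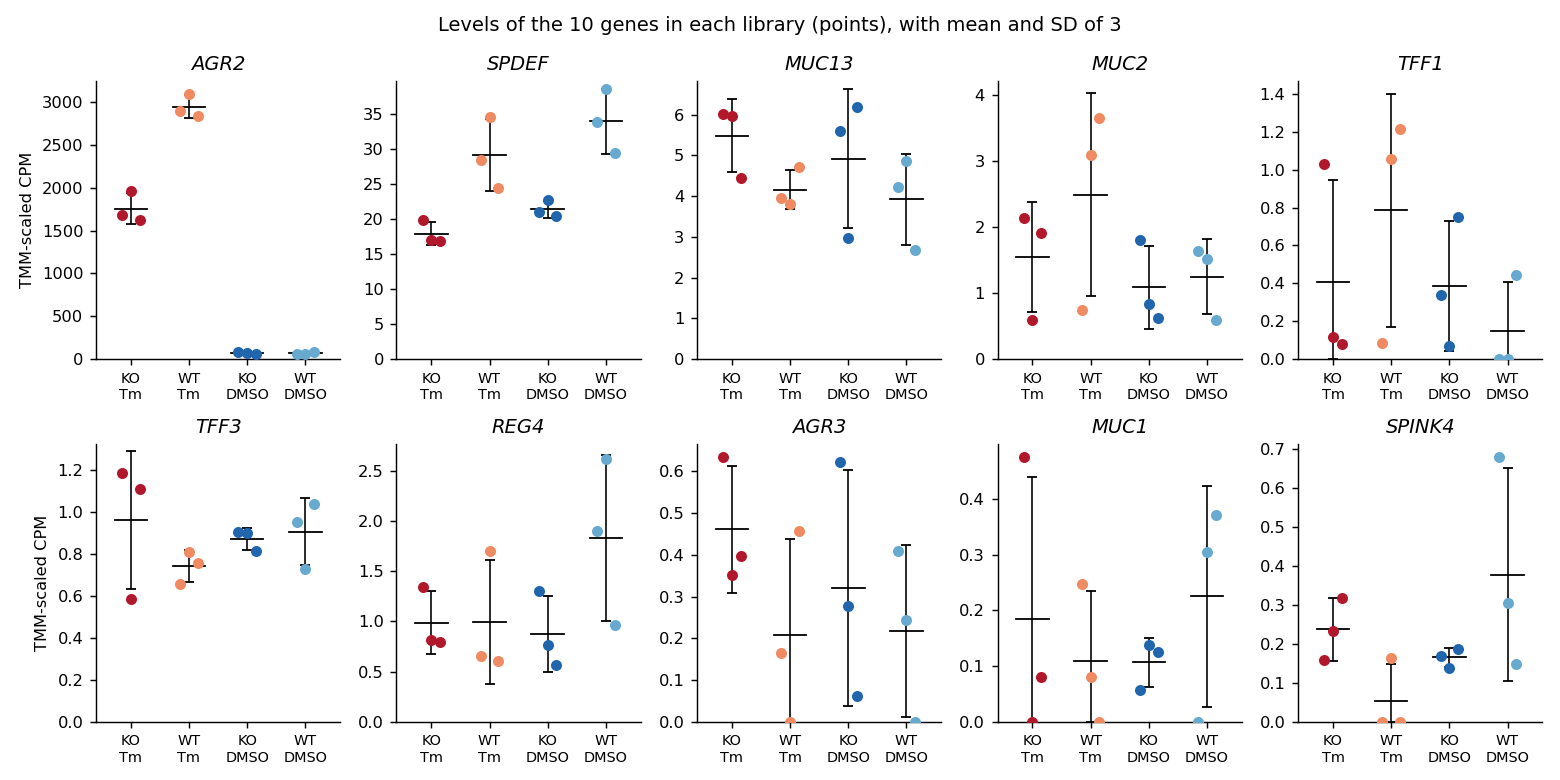
TMM-scaled CPM (linear axes from 0, one scale per gene) of the 10 genes in each library, by group; points are libraries, bars the mean and SD of 3, with the lower SD bar cut at 0. AGR2 separates by treatment and, under Tm, by genotype. SPDEF is lower in QRICH1 KO under both treatments. In the other 8 genes the libraries overlap in each comparison of treatment or genotype.

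In QRICH1 KO cells Tm raised AGR2 26.3-fold (log2 fold change 4.71 ± 0.15 SE, 95% interval of the fold 21.0 to 32.8, adjusted p = 3.64e-13, edgeR quasi-likelihood test with Benjamini-Hochberg adjustment over all tested genes). In WT cells the rise was 43.9-fold (log2 fold change 5.46 ± 0.16 SE, interval 34.9 to 55.3, adjusted p = 5.35e-14). AGR2 held rank 1 by fold change among tested genes with a mean of at least 10 CPM in both genotypes, and rank 8 and rank 6 among all tested genes in QRICH1 KO and in WT. Tm raised 9.09% of tested genes in QRICH1 KO (15.6% called either way) and 12.6% in WT (23.8% either way), and among the 7 tested secretory genes AGR2 was the 1 called in each. The calls held under every alternative tried. Each genotype comparison below uses libraries that a Tm comparison also uses.

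Ranked by CPM per kb of exon among 19954 genes, AGR2 moved up to rank 74 to 89 in the QRICH1 KO Tm libraries, against rank 1152 to 1385 in QRICH1 KO DMSO, and to rank 47 to 54 in WT Tm, against rank 1045 to 1358 in WT DMSO. HSPA5, the chaperone BiP, was given as a check of the stress: its mean was 16463 ± 1342 CPM in QRICH1 KO Tm and 27850 ± 2626 CPM in WT Tm, against 1127 ± 65.8 CPM in QRICH1 KO DMSO and 1081 ± 116 CPM in WT DMSO (SD, n = 3 each). Its fold changes, 14.6-fold in QRICH1 KO and 25.8-fold in WT, were smaller than those of AGR2, while its level per kb of exon was higher than that of AGR2 in every group.

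QRICH1 KO lowered AGR2 under Tm, with a log2 fold change of -0.75 ± 0.13 SE (interval -1.02 to -0.47, adjusted p = 0.00681), which is 1.68-fold lower. Of all tested genes 1.17% were called in this comparison, 0.760% as lower, and among the 7 tested secretory genes AGR2 and SPDEF were called, both lower. Under DMSO the log2 fold change was -0.0054 ± 0.13 SE (interval -0.29 to 0.28, adjusted p = 0.992), in a comparison where 0.0971% of genes were called. The difference between the genotypes in the Tm response, tested as an interaction, was -0.74 ± 0.19 SE on the log2 scale (unadjusted p = 0.000892, adjusted p = 0.266) and was not called. In that test 0% of genes were called, 774 of 11323 (6.84%) had an unadjusted p under 0.05, and DESeq2 called 41 genes. AGR2 was among those 41 (adjusted p = 0.0167), and it was also called by edgeR without a filter on low counts (adjusted p = 0.0124).

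Genes with the pattern most like AGR2 were found by Pearson correlation of log2 CPM over the 12 libraries among 6944 other tested genes of at least 10 CPM on average, as a description, since the libraries fall into separate Tm and DMSO clusters. The 5 nearest were HERPUD1 (r = 0.9985), a component of ER-associated degradation, HSPA5 (0.9982), SSR3 (0.9981), a subunit of the translocon-associated protein complex, WARS1 (0.9979), the cytosolic tryptophanyl-tRNA synthetase, and SRPRB (0.9979), which anchors the receptor for the signal recognition particle. Their log2 fold changes with Tm were 4.52, 3.87, 1.86, 2.46 and 2.10 in QRICH1 KO and 4.99, 4.69, 2.29, 3.04 and 2.59 in WT, in the same order. For QRICH1 KO against WT under Tm, the same order gave -0.57, -0.76, -0.41, -0.50 and -0.46. These genes were chosen for a pattern that includes the lower AGR2 level in QRICH1 KO Tm, so their values describe the choice and test nothing.

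AGR2 belongs to the disulfide isomerase family, whose members form and reshuffle disulfide bonds in the ER. Of 18 other members, 15 were tested. Tm raised 9 of the 15 in QRICH1 KO and 10 of the 15 in WT, and lowered none, where 9.09% and 12.6% of all tested genes were called higher. The median log2 fold change of the 15 was 0.97 in QRICH1 KO and 1.39 in WT, beside medians of -0.0039 and -0.024 over all tested genes. The largest rise after AGR2 was of PDIA4 (ERp72), at 4159 ± 463 CPM in QRICH1 KO Tm against 693 ± 49.1 CPM in QRICH1 KO DMSO, and 6913 ± 710 CPM in WT Tm against 678 ± 93.5 CPM in WT DMSO (SD, n = 3 each). Its log2 fold change was 2.58 ± 0.14 SE in QRICH1 KO and 3.35 ± 0.14 SE in WT. PDIA6 rose by 1.54 in QRICH1 KO and 2.24 in WT, PDIA3 (ERp57), which works on glycoproteins, by 1.64 and 2.22, and ERP44, which retains clients in the early secretory pathway, by 1.38 and 2.09 (log2 fold changes). DNAJC10, a disulfide reductase that acts in ER-associated degradation, rose by 1.62 and 1.94. The intervals of AGR2 lay above those of all 15 in both genotypes.

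**Figure D2:**
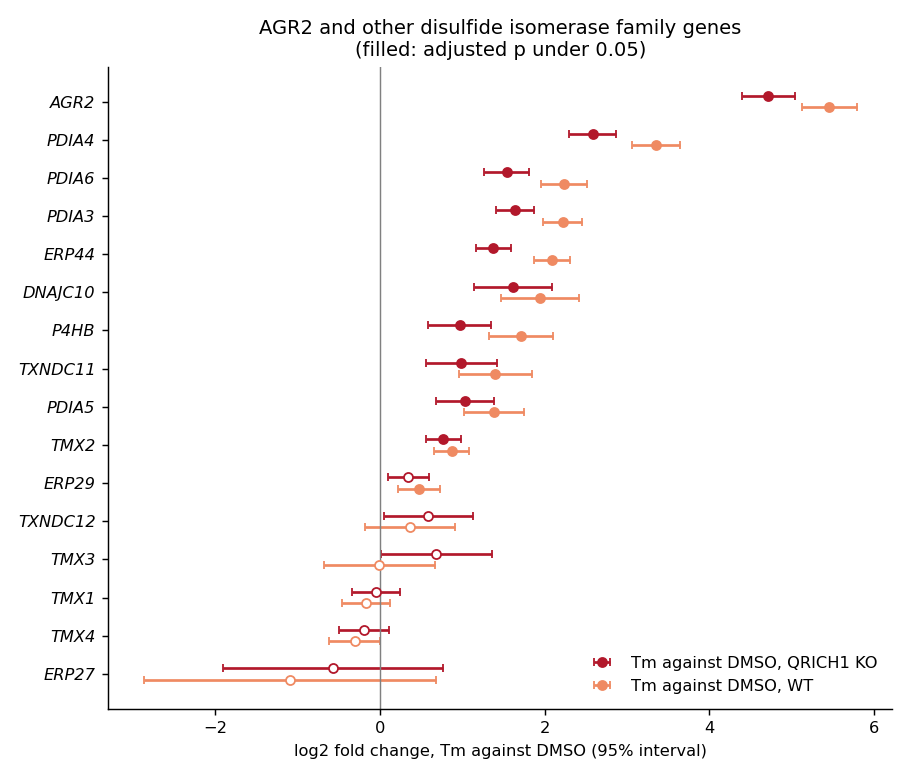
Log2 fold change with Tm (x axis, points, with 95% intervals) of AGR2 and the 15 other tested disulfide isomerase family genes, QRICH1 KO above WT in each row; filled points passed the test. AGR2 stands at 4.71 in QRICH1 KO and 5.46 in WT, and the next gene, PDIA4, at 2.58 and 3.35.

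QRICH1 KO lowered 2 of these 15 genes under Tm and raised none, where 0.760% of all tested genes were called lower. The median log2 fold change of the 15 was -0.25, beside 0.0097 over all tested genes. The 2 lowered genes were PDIA4 (-0.73 ± 0.13 SE, adjusted p = 0.00713) and ERP44 (-0.63 ± 0.10 SE, adjusted p = 0.00484). None of the 15 was called under DMSO (median 0.084) or in the interaction (median -0.33), beside 0.0971% and 0% of all tested genes. In the interaction DESeq2 and edgeR without a filter on low counts each called 4 of the family, among 41 and 44 genes called in all.

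AGR3 (ENSG00000173467.9, chr7:16859405-16881987, hg38, minus strand) encodes a close relative of AGR2 and is its neighbour on chromosome 7. It had 8, 3 and 5 counts in QRICH1 KO Tm and 2, 0 and 3 in WT Tm, against 11, 4 and 1 in the QRICH1 KO DMSO libraries and 3, 4 and 0 in WT DMSO, and was not tested. All groups overlapped, so that no change of AGR3 was detectable at this depth beside the rise of AGR2.

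MUC2 (ENSG00000198788.8, chr11:1074875-1110511, plus strand), the secreted gel-forming mucin of the gut, had 2.14, 0.585 and 1.91 CPM in QRICH1 KO Tm and 0.742, 3.09 and 3.65 CPM in WT Tm, against 1.81, 0.832 and 0.626 CPM in QRICH1 KO DMSO and 1.63, 1.52 and 0.595 CPM in WT DMSO. The lowest WT Tm library lay below the mean of the WT DMSO libraries, 1.25 CPM, while the other two lay above all DMSO libraries of both genotypes. With Tm the log2 fold change was 0.53 ± 0.60 SE in QRICH1 KO (interval -0.74 to 1.80, adjusted p = 0.620) and 0.98 ± 0.61 SE in WT (interval -0.30 to 2.26, adjusted p = 0.274). QRICH1 KO against WT gave -0.60 ± 0.59 SE under Tm (adjusted p = 0.731) and -0.15 ± 0.62 SE under DMSO (adjusted p = 0.956). These intervals include no change as well as a rise of MUC2 in WT by up to 4.78-fold.

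MUC13 (ENSG00000173702.7, chr3:124905442-124953819, minus strand), a transmembrane mucin of gut epithelium, had the highest level per kb of exon of the 3 mucins. It had 6.03, 5.97 and 4.46 CPM in QRICH1 KO Tm and 3.96, 3.82 and 4.71 CPM in WT Tm, against 5.60, 2.98 and 6.19 CPM in QRICH1 KO DMSO and 4.22, 4.87 and 2.68 CPM in WT DMSO. The groups overlapped in all 4 comparisons. The log2 fold change with Tm was 0.15 ± 0.29 SE in QRICH1 KO (interval -0.47 to 0.76, adjusted p = 0.794) and 0.072 ± 0.31 SE in WT (interval -0.58 to 0.73, adjusted p = 0.902). Between the genotypes it was 0.41 ± 0.30 SE under Tm (adjusted p = 0.624) and 0.33 ± 0.30 SE under DMSO (adjusted p = 0.770). By pattern its nearest genes were RBSN (r = 0.8844), an early endosome protein gene, and VPS11 (0.8515), a subunit of endosomal tethering complexes, followed by MOCS3 (0.7281), CYP3A5 (0.7160) and FITM2 (0.7119), over 12 libraries and 6945 candidate genes. MUC13 was called in no comparison, and the highest of so many correlations describe the choice and test nothing.

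MUC1 (ENSG00000185499.16, chr1:155185824-155192916, minus strand), a transmembrane mucin, had 6, 0 and 1 counts in QRICH1 KO Tm and 3, 1 and 0 in WT Tm, against 1, 2 and 2 in the QRICH1 KO DMSO libraries and 0, 5 and 5 in WT DMSO. It had the lowest level per kb of exon of the 10 genes in every group, with 26 counts in all, and was not tested. It shares 48 of its 4717 exon bases with an annotated gene on the same strand, AL713999.1, so reads from those bases are uncertain.

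Of 13 other mucin genes only MUC5AC, MUC16 and MUC20 were tested, and MUC7 was at 0 in all 12 libraries. With Tm, 1 of the 3 was called in each genotype, beside 15.6% of all tested genes in QRICH1 KO and 23.8% in WT. MUC16, a transmembrane mucin, fell with Tm in both genotypes, to 5.28 ± 1.49 CPM in QRICH1 KO Tm against 10.6 ± 2.17 CPM in QRICH1 KO DMSO, and to 4.80 ± 1.45 CPM in WT Tm against 12.3 ± 0.61 CPM in WT DMSO (SD, n = 3 each). The log2 fold change was -1.02 ± 0.24 SE in QRICH1 KO (adjusted p = 0.00798) and -1.40 ± 0.25 SE in WT (adjusted p = 0.000468). MUC20, another transmembrane mucin, averaged 6.43 ± 0.34 CPM in QRICH1 KO Tm against 8.51 ± 0.83 CPM in QRICH1 KO DMSO, and 5.34 ± 0.54 CPM in WT Tm against 8.03 ± 1.44 CPM in WT DMSO. In QRICH1 KO its Tm libraries all lay below the DMSO libraries, as for 15.5% of all tested genes. MUC20 was not called, with a log2 fold change of -0.41 ± 0.20 SE in QRICH1 KO (adjusted p = 0.188) and -0.58 ± 0.21 SE in WT (adjusted p = 0.0509). With upper-quartile factors, with the replicate block or without WT DMSO library 3, the mucins called with Tm in WT numbered 2 in place of 1. MUC5AC, the gel-forming mucin of stomach and airway, was not called in any comparison and averaged 8.98, 10.5, 9.13 and 7.75 CPM in QRICH1 KO Tm, WT Tm, QRICH1 KO DMSO and WT DMSO.

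TFF3 (ENSG00000160180.15, chr21:42311667-42315651, minus strand), the trefoil factor of intestinal goblet cells, had few counts, 5 to 16 in a library. It had 1.19, 0.585 and 1.11 CPM in QRICH1 KO Tm and 0.660, 0.813 and 0.760 CPM in WT Tm, against 0.904, 0.901 and 0.813 CPM in QRICH1 KO DMSO and 0.953, 0.731 and 1.04 CPM in WT DMSO. All groups overlapped. Its log2 fold changes were 0.17 ± 0.45 SE with Tm in QRICH1 KO, -0.27 ± 0.49 SE with Tm in WT, 0.40 ± 0.48 SE for QRICH1 KO against WT under Tm and -0.042 ± 0.45 SE under DMSO, with adjusted p of 0.847, 0.747, 0.788 and 0.984 in this order. The interval with Tm was wide, at -0.77 to 1.12 in QRICH1 KO and -1.30 to 0.75 in WT.

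TFF1 (ENSG00000160182.3, chr21:42362282-42366594, minus strand), a trefoil factor best known from the stomach, passed the filter with few counts: 13, 1 and 1 in QRICH1 KO Tm and 1, 13 and 8 in WT Tm, against 6, 1 and 12 in the QRICH1 KO DMSO libraries and 0, 0 and 6 in WT DMSO. Libraries of the same group thus differed as much as the groups did. The largest fitted change was with Tm in WT, a log2 fold change of 2.14 ± 1.20 SE (interval -0.38 to 4.65, adjusted p = 0.219), which ran between 1.42 and 6.23 as each library was left out; in QRICH1 KO it was 0.14 ± 1.05 SE (adjusted p = 0.948). For QRICH1 KO against WT it was -0.76 ± 1.04 SE under Tm (adjusted p = 0.821) and 1.23 ± 1.22 SE under DMSO (adjusted p = 0.801, between 0.39 and 5.32 as each library was left out).

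REG4 (ENSG00000134193.15, chr1:119794018-119811660, minus strand), a secreted lectin-like protein gene, had 1.35, 0.820 and 0.796 CPM in QRICH1 KO Tm and 0.660, 1.71 and 0.608 CPM in WT Tm, against 1.30, 0.762 and 0.563 CPM in QRICH1 KO DMSO and 1.91, 2.62 and 0.967 CPM in WT DMSO. WT DMSO held the highest libraries, but its lowest overlapped with every other group. The log2 fold change was 0.18 ± 0.55 SE with Tm in QRICH1 KO (adjusted p = 0.874), -0.83 ± 0.53 SE with Tm in WT (adjusted p = 0.289), -0.046 ± 0.56 SE for QRICH1 KO against WT under Tm (adjusted p = 0.983) and -1.05 ± 0.51 SE under DMSO (unadjusted p = 0.0555, adjusted p = 0.556).

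SPINK4 (ENSG00000122711.9, chr9:33218365-33248567, plus strand), a Kazal-type protease inhibitor gene of goblet cells, had 2, 2 and 4 counts in QRICH1 KO Tm and 0, 2 and 0 in WT Tm, against 3, 2 and 3 in the QRICH1 KO DMSO libraries and 5, 5 and 2 in WT DMSO, and was not tested.

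Among 22 other goblet product genes 6 were tested. With Tm, 1 of the 6 was called in QRICH1 KO and 3 in WT, beside 15.6% and 23.8% of all tested genes. In QRICH1 KO, Tm raised none of the 6 and lowered BCAS1, a gene found in goblet cells (log2 fold change -0.87 ± 0.20 SE, adjusted p = 0.00696). In WT it raised 2, SPINK1, a secreted trypsin inhibitor gene (1.39 ± 0.27 SE, adjusted p = 0.00106), and TFF2, the trefoil factor of gastric mucous cells (0.87 ± 0.28 SE, adjusted p = 0.0276), and lowered BCAS1 (-1.33 ± 0.21 SE, adjusted p = 0.000124). The TFF2 call was lost without WT Tm library 2 (adjusted p = 0.0668), WT Tm library 3 (0.0934) or WT DMSO library 3 (0.124), and the BCAS1 call in QRICH1 KO without both QRICH1 KO libraries 3 (0.0541). TFF2 averaged 5.51 ± 0.70 CPM in QRICH1 KO Tm and 7.60 ± 1.19 CPM in WT Tm, against 4.53 ± 0.82 CPM in QRICH1 KO DMSO and 4.17 ± 1.49 CPM in WT DMSO (SD, n = 3 each). The median log2 fold change of the 6 was -0.075 in QRICH1 KO and 0.20 in WT, beside -0.0039 and -0.024 over all tested genes. No gene of this list was called between the genotypes or in the interaction. Of all tested genes 1.17% were called between the genotypes under Tm, 0.0971% under DMSO and 0% in the interaction.

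**Figure D3:**
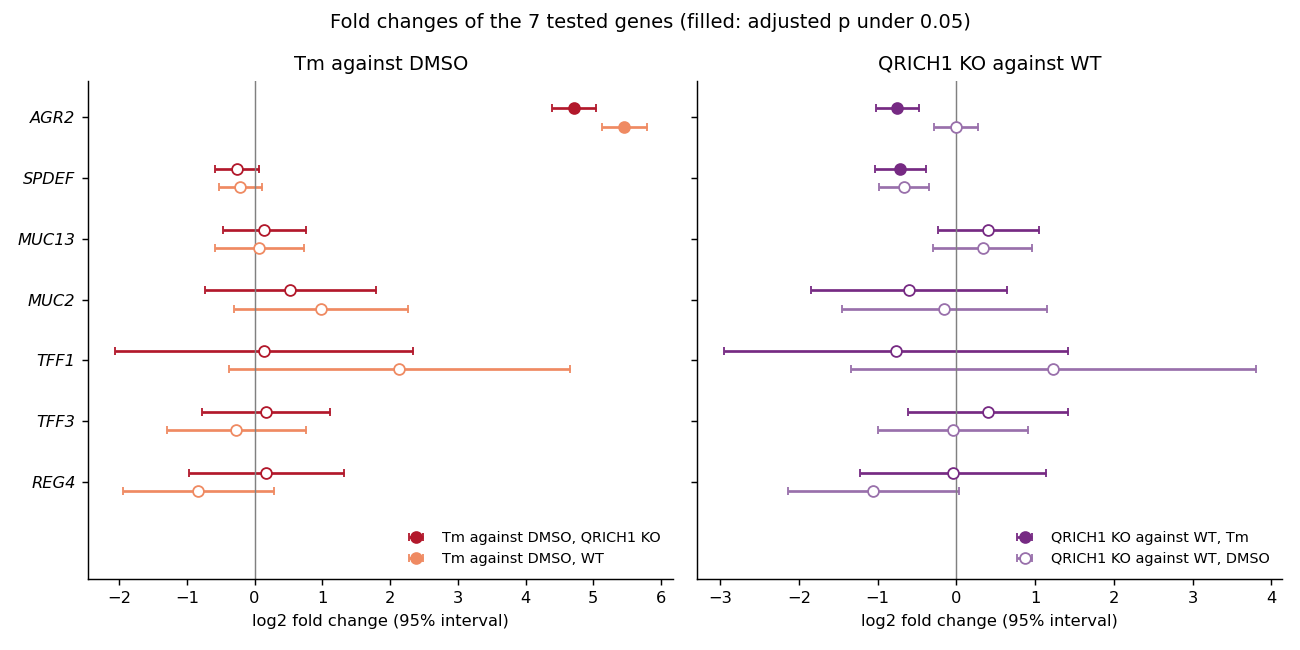
Log2 fold changes with 95% intervals (x axis) of the 7 tested genes, with Tm against DMSO on the left (QRICH1 KO above WT) and QRICH1 KO against WT on the right (Tm above DMSO); filled points passed the test. AGR2 passed in 3 comparisons and SPDEF in 1, and the intervals of MUC13, MUC2, TFF1, TFF3 and REG4 all include 0.

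SPDEF (ENSG00000124664.11, chr6:34537802-34556333, minus strand) had the highest level per kb of exon among the other 9 genes in every group. It had 19.8, 17.1 and 16.9 CPM in QRICH1 KO Tm against 28.5, 34.7 and 24.5 CPM in WT Tm, and 21.1, 22.8 and 20.5 CPM in QRICH1 KO DMSO against 33.9, 38.7 and 29.5 CPM in WT DMSO. Every QRICH1 KO library lay below every WT library under either treatment. For libraries that do not overlap, lower in QRICH1 KO, the share over all tested genes was 9.06% under Tm and 6.09% under DMSO.

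Under Tm the log2 fold change of SPDEF in QRICH1 KO against WT was -0.71 ± 0.15 SE (interval -1.03 to -0.39, adjusted p = 0.0271), which is 1.64-fold lower. Leaving out 1 library ended this call in 5 of 12 cases, with adjusted p = 0.0711 without WT Tm library 1, 0.138 without WT Tm library 2, and 0.05, 0.130 and 0.0988 without QRICH1 KO Tm libraries 1, 2 and 3. Without both QRICH1 KO libraries 3 it was 0.0817. Under DMSO the log2 fold change was -0.67 ± 0.15 SE (interval -0.98 to -0.35, unadjusted p = 0.000302, adjusted p = 0.118) and was not called, whereas DESeq2 (adjusted p = 0.0152) and edgeR without a filter on low counts (adjusted p = 0.0133) called it. The interaction was -0.044 ± 0.21 SE (interval -0.49 to 0.40, adjusted p = 0.989), so that no difference in the genotype effect between treatments was detected. Averaged over both treatments, a contrast chosen after these values were seen, SPDEF was lower in QRICH1 KO by a log2 fold change of -0.69 (adjusted p = 0.00256, with 1.70% of genes called), and this held without any 1 library (adjusted p of 0.00242 to 0.0121).

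Tm against DMSO gave SPDEF a log2 fold change of -0.26 ± 0.15 SE in QRICH1 KO (adjusted p = 0.289) and -0.21 ± 0.15 SE in WT (adjusted p = 0.344). The QRICH1 KO Tm libraries all lay below the QRICH1 KO DMSO libraries, while those of WT overlapped. Non-overlapping, lower libraries made up 15.5% of all tested genes in QRICH1 KO. Genes with a similar pattern over the 12 libraries, among 6944 candidates, were P3H4 (r = 0.9222), an ER protein gene of collagen modification, SHISA5 (0.8820), SUCLG2 (0.8817), a subunit of mitochondrial succinyl-CoA ligase, and PRDX2 (0.8779), a peroxidase. For QRICH1 KO against WT under Tm, P3H4 was at -0.89 on the log2 scale, SHISA5 at -0.39, SUCLG2 at -0.39 and PRDX2 at -0.58, which the choice by pattern fixes in part and which tests nothing.

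Of 16 other transcription factor genes of the intestinal epithelium and its secretory lineage, 11 were tested. None was called with Tm in QRICH1 KO, where 15.6% of all tested genes were called. Their number was 1 without a filter on low counts, without both QRICH1 KO libraries 3 and without QRICH1 KO DMSO library 3. In WT, where 23.8% of all tested genes were called, 3 of the 11 were. Tm raised KLF4, a goblet cell differentiation factor in the mouse colon, to 2.40 ± 0.27 CPM in WT Tm against 0.50 ± 0.19 CPM in WT DMSO (log2 fold change 2.32 ± 0.60 SE, adjusted p = 0.00816). It lowered HNF4A (-0.90 ± 0.24 SE, adjusted p = 0.0111) and ELF3, an epithelial ETS factor (-0.60 ± 0.16 SE, adjusted p = 0.00978). Single libraries decided these calls: KLF4 was lost without WT DMSO library 2 (adjusted p = 0.0545), HNF4A without WT Tm library 3 (0.0559) or WT DMSO library 1 (0.0561), and ELF3 without WT Tm library 1 (0.0686). The median log2 fold change of the 11 was -0.24 in QRICH1 KO and -0.045 in WT. None of the 11 was called between the genotypes under Tm or DMSO, beside 1.17% and 0.0971% of all tested genes. Without a filter on low counts 1 gene of the list was called under Tm, among 279 genes in all.

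Of 18 genes of mucus maturation and granule release 16 were tested. With Tm, 3 were called in QRICH1 KO and 6 in WT, beside 15.6% and 23.8% of all tested genes. In QRICH1 KO, Tm raised ATP2C2, a Golgi calcium and manganese pump gene (log2 fold change 0.75 ± 0.14 SE, adjusted p = 0.00118), and lowered SYTL4, a granule docking gene (-2.15 ± 0.61 SE, adjusted p = 0.0232), and the protease gene BACE2 (-0.47 ± 0.14 SE, adjusted p = 0.0301). The BACE2 call was lost without any 1 of the 6 QRICH1 KO libraries (adjusted p of 0.0519 to 0.118), without both QRICH1 KO libraries 3 (0.113) and without a filter on low counts (0.0647). The SYTL4 call was lost without QRICH1 KO Tm library 1 (0.0941) or 3 (0.0735), QRICH1 KO DMSO library 1 (0.0585) or both QRICH1 KO libraries 3 (0.114). In WT it raised ATP2C2 (1.01 ± 0.14 SE, adjusted p = 3.33e-05), MLPH (0.51) and STARD10 (0.43), and lowered SYTL2 (-0.81), the chloride cotransporter gene SLC12A2 (-0.75) and BACE2 (-0.50). The SLC12A2 call was lost without WT Tm library 2 (adjusted p = 0.0897), WT Tm library 3 (0.0654) or WT DMSO library 3 (0.12, log2 fold change -0.50). The median log2 fold change of the 16 was -0.078 in QRICH1 KO and -0.24 in WT. None of the 16 was called between the genotypes, beside 1.17% of all tested genes under Tm and 0.0971% under DMSO.

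Compared per length of exon, AGR2 stood highest of the 10 genes in every group. In DMSO libraries it stood closer to SPDEF than under Tm: 23.5 ± 3.28 CPM per kb for AGR2 and 11.2 ± 0.64 for SPDEF in QRICH1 KO DMSO, and 23.5 ± 3.84 and 17.8 ± 2.40 CPM per kb in WT DMSO. Under Tm the gap was wide, at 617 ± 64.0 CPM per kb for AGR2 and 9.37 ± 0.86 for SPDEF in QRICH1 KO Tm, and 1036 ± 46.3 and 15.3 ± 2.69 CPM per kb in WT Tm (SD, n = 3 each). In WT DMSO the order below SPDEF was MUC13 (1.12), TFF3 (0.778), SPINK4 (0.578), REG4 (0.524), TFF1 (0.270), AGR3 (0.187), MUC2 (0.0987) and MUC1 (0.0478 CPM per kb). AGR2 and SPDEF were apart from each other and from the rest in every library of that group, and each neighbouring pair from MUC13 downward overlapped.

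**Figure D4:**
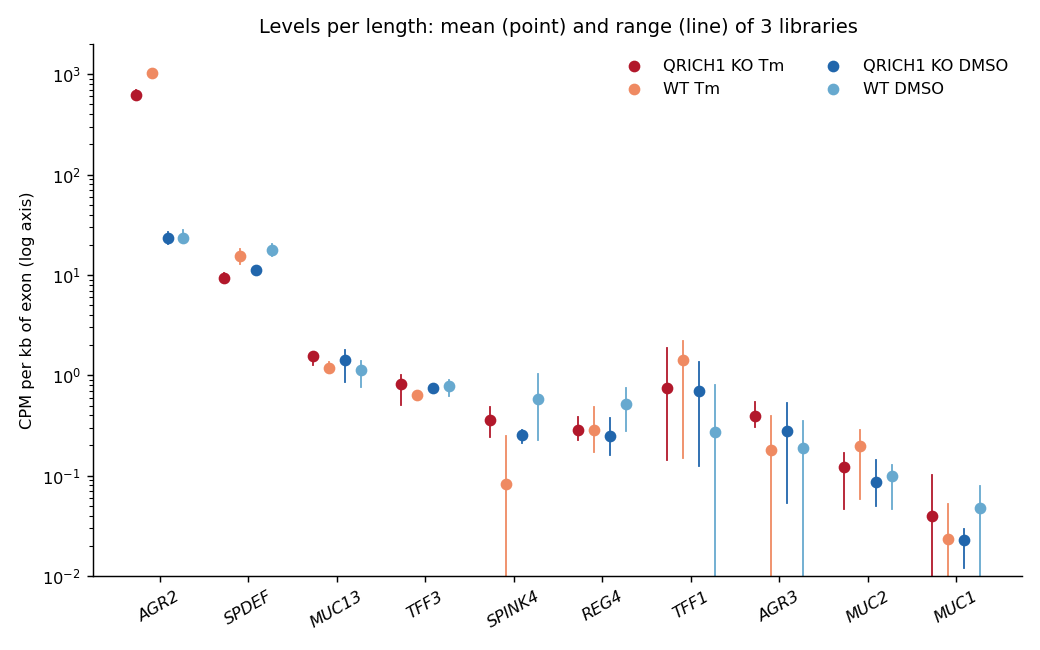
CPM per kb of exon (log axis) of the 10 genes by group, ordered by the mean in WT DMSO; points are means and lines the range of 3 libraries, drawn down to the axis floor where a library is at 0. AGR2 reaches 617 in QRICH1 KO Tm and 1036 in WT Tm, and the 8 genes right of SPDEF have means of at most 1.57.

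Markers of other gut cells were followed beside these genes. The summed level of 6 tuft cell markers was 3.09 to 8.83 CPM over all libraries, and that of 14 non-epithelial markers was 3.89 to 9.48 CPM. Of 6 Paneth cell markers LYZ made up nearly all of the sum, while the defensin genes DEFA5 and DEFA6 had at most 2 and 4 counts. The summed level of 6 stem cell markers was 67.4 to 105 CPM in QRICH1 KO Tm and 115 to 151 CPM in WT Tm, against 58.5 to 68.6 CPM in QRICH1 KO DMSO and 71.8 to 75.3 CPM in WT DMSO. These moved in opposite directions: Tm raised SMOC2 (log2 fold change 3.54 in QRICH1 KO, 3.92 in WT) and PROM1 (1.54 and 1.75) and lowered LGR5 (-0.92 and -1.81). Under Tm, PROM1 was lower (-0.90) and LGR5 higher (1.05) in QRICH1 KO than in WT. Their part in the results on AGR2 and SPDEF was not tested.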

How the data were processed

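The authors deposited raw read counts per gene, whole numbers without normalization, for 12 libraries. Per the labels' protocols, cDNA was made by a modified Smart-seq2 method and tagmented with Nextera XT, which keeps no strand and adds no molecular identifiers. The submitters' processing notes name Trimmomatic, STAR, DESeq2 and hg38. How reads were counted, with which annotation, is not given in the sources used here, so counts of near-identical genes are uncertain. Of 20015 gene IDs, 19875 matched a symbol. Positions and exon lengths are from GENCODE 29.

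Groups came from the sample titles, and the design text calls replicates biological. Libraries of a group differed by 8.64 to 35.8 in chi-square per degree of freedom, so none was a copy. Counts were TMM-scaled and fitted with edgeR 4.0.16 (R 4.3.3): filterByExpr with a minimum count of 10, a quasi-likelihood model with 4 group means over all 12 libraries (common biological coefficient of variation 0.155), and Benjamini-Hochberg adjustment over 11323 genes. Tests were two-sided, with a threshold of 0.05 on the adjusted p. The SE came from the F statistic. The interaction subtracts the Tm response of WT from that of QRICH1 KO. CPM are TMM-scaled, with mean ± SD of 3. The procedure was tested on simulated data. Alternatives were other scaling factors, DESeq2 1.42.0, other filters, fewer groups in the fit, a replicate block and leaving out libraries.

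Named were the 10 genes, QRICH1, HSPA5, leading epithelial markers, the 5 genes most correlated with each gene called in a comparison and with MUC13, and up to 4 called genes per list with the largest change; other marker genes were named after their values were seen, and 1 gene that the rule names is not reported here. The genes and lists were chosen with earlier results of these data known.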

Additional observations from a re-analysis of the deposited data

How the results depend on the processing

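Over 138 results, 1965 values were recomputed under alternatives, of which 1843 stayed the same. A fold change did so if it kept its direction and side of the threshold. A number of genes called had to stay within 1.5 times, and a mean level within the SD of its group. Of the other values 47 moved further, 40 lost a call, 4 gained one and 31 changed sign. The rise of AGR2 with Tm and its lower level in QRICH1 KO under Tm kept their calls under every alternative (adjusted p of at most 0.0428 between the genotypes). No scaling moved the median of all genes by over 0.1.

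Genes called between QRICH1 KO and WT under Tm (132) numbered 289 with DESeq2 and 279 without a filter on low counts. Under DMSO (11) they numbered 58 with DESeq2, 138 without a filter, 6 with only these groups in the fit, 17 with the replicate block and 59 without both QRICH1 KO libraries 3. In the interaction (0) they numbered 41 with DESeq2 and 44 without a filter. Secretory genes called were 1 in place of 0 with DESeq2 and without a filter, SPDEF under DMSO and AGR2 in the interaction, and 1 in place of 2 under Tm without both QRICH1 KO libraries 3. The mean of AGR2 in WT Tm was 2746 CPM without scaling factors, against 2947. The cause was not tested.

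Leaving out 1 library gave 1109 to 1858 genes called with Tm in QRICH1 KO (1768 with all), 56 to 160 between the genotypes under Tm, 5 to 39 under DMSO and 0 to 4 in the interaction, and 1 to 2 secretory genes under Tm. The isomerase family genes lower in QRICH1 KO under Tm numbered 2 to 4, and 5 with DESeq2, 6 without a filter and 4 with the replicate block.

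The sign changes were of values that passed no test. For QRICH1 KO against WT under Tm, the log2 fold change of REG4 was 0.071 with the replicate block and 0.094 without both QRICH1 KO libraries 3. Under DMSO without those libraries AGR2 was at 0.071 and MUC2 at 0.11. Leaving out 1 library gave ranges with Tm in QRICH1 KO of -1.93 to 0.98 for TFF1, -0.11 to 0.34 for MUC13 and -0.13 to 0.59 for REG4, and of -0.15 to 0.30 for MUC13 with Tm in WT. For QRICH1 KO against WT they were -0.35 to 0.63 for REG4 under Tm, and -0.12 to 0.14 for AGR2, -0.20 to 0.086 for TFF3 and -0.75 to 0.13 for MUC2 under DMSO. In the interaction they were -0.92 to 0.14 for MUC2, -0.18 to 0.30 for MUC13 and -0.15 to 0.10 for SPDEF.

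Over all comparisons, replicate numbers gave no clear pairing of the samples. Same-numbered libraries correlated at -0.158 to 0.265 in their deviations from the group means, and differently numbered ones at -0.239 to 0.198. In QRICH1 KO, Tm against DMSO, the range was higher for same-numbered libraries, 0.00214 to 0.265 against -0.239 to 0.0356, with a small overlap. Whether the numbers pair the QRICH1 KO libraries was not tested. The replicate block changed no call of the 10 genes. Depth limits AGR3, MUC1, SPINK4 and TFF1 most, whose counts stayed at or under 13 in a library.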

Other observations

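The neighbours of AGR2 on chromosome 7 were looked at after the values above were seen. Within 1 Mb of it, 10 protein-coding genes were in the table and 7 were tested. With Tm, 2 of the 7 were called in QRICH1 KO (TSPAN13 and SOSTDC1) and 3 in WT (those and BZW2, log2 fold change -0.42 ± 0.11 SE, adjusted p = 0.0104). Over all tested genes, 15.6% were called with Tm in QRICH1 KO and 23.8% in WT. TSPAN13, the next gene towards the chromosome's lower coordinates, which encodes a tetraspanin, rose with Tm to 97.4 CPM in QRICH1 KO Tm against 70.5 CPM in QRICH1 KO DMSO (log2 fold change 0.46 ± 0.12 SE, adjusted p = 0.0142), and to 145 CPM in WT Tm against 75.7 CPM in WT DMSO (0.93 ± 0.12 SE). Like AGR2 it was lower in QRICH1 KO under Tm (log2 fold change -0.57 ± 0.12 SE, adjusted p = 0.0251). In that comparison 0.760% of all tested genes were called lower.

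SOSTDC1, a secreted antagonist of BMP and Wnt signals in the same stretch, fell with Tm to 15.1 CPM in QRICH1 KO Tm against 29.3 CPM in QRICH1 KO DMSO (log2 fold change -0.95 ± 0.16 SE), and to 8.65 CPM in WT Tm against 32.3 CPM in WT DMSO (-1.91 ± 0.17 SE). Under Tm it was higher in QRICH1 KO than in WT (log2 fold change 0.82 ± 0.17 SE, adjusted p = 0.0241). The aryl hydrocarbon receptor gene AHR, on the far side of AGR3, was not called in any comparison and had 8.53, 7.05, 6.97 and 10.3 CPM on average in QRICH1 KO Tm, WT Tm, QRICH1 KO DMSO and WT DMSO.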
